A study of Mus musculus with 2 samples.

Results

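The BET proteins are readers of acetylated chromatin: each carries a pair of bromodomains that bind acetylated lysines of histone tails and an extra-terminal (ET) domain that binds partner proteins. Brd2 and Brd3 were the BET genes asked about, and every probe of the array carrying either symbol was taken. The platform annotation used here listed 3 probes for Brd2 and none for Brd3, so 1 of the 2 genes, with 3 of 23978 named probes, could be measured, out of 16593 named genes. Brd3 was not analysed here. For the relative Brdt the annotation used here listed 2 probes.

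The material was mouse fibroblasts, measured on single-colour Illumina bead arrays. One array held control cells ("Control") and the other held cells on gold nanoparticles exposed to an electromagnetic field ("EMF+AuNPs"). The labels give no field strength, duration, strain or animal age, and neither nanoparticles alone nor the field alone were among the samples, so the exposures cannot be told apart. With 1 array per condition no value has a replicate error and no test between conditions was possible. The number of arrays limits the precision.

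Median intensities were 165 and 162. At a detection p under 0.01, 12012 and 11963 of 25697 probes were detected, 11583 of them on both arrays. Of 11 fibroblast markers on the arrays, 11 were detected. By their brightest probes 0 passed 1.5-fold, a limit that few of all detected genes passed (3.34% higher and 2.91% lower). Their median difference was -0.15, with 2 above 0 and 9 below. A second probe of the collagen gene Col3a1 differed by 0.66, past 1.5-fold. Macrophage markers were present too: 7 of 8 were detected (the integrin gene Itgam was not), with a median difference of 0.05. One of the 7, Ptprc, was detected on the control array alone, with intensities of 227 and 158. Lyz2, the lysozyme gene of macrophages, had intensities of 46631 and 42568 on its brightest probe. That probe differed by -0.11, and the other probes of Lyz2 by 0.75 and 0.15. Of the other marker lists, 1 of 4 endothelial, 1 of 3 epithelial, 1 of 5 neuron and 0 of 3 erythroid genes on the arrays were detected. The part of macrophages in the Brd2 signal was not tested. In such bulk RNA, a change in the number of cells of a type and a change in RNA per cell cannot be told apart.

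Brd2 binds acetylated histone H4 and associates with E2F transcription factors. Its gene (Entrez 14312) lies on the minus strand of chromosome 17 from 34112019 to 34122814 in GRCm38.p6, inside the class II region of the major histocompatibility complex. RefSeq lists 2 curated coding transcripts and 1 curated non-coding transcript for it, beside 5 predicted ones. Brd3 (Entrez 67382) lies on chromosome 2 from 27445576 to 27507657. The annotation assigns all 3 Brd2 probes to the same transcript record and gives no position within it, so which transcript forms each probe reads was not determined.

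The RefSeq window table used here holds 3 Brd2 start sites. They do not cover every listed transcript, since the gene's range reaches beyond the outermost of these starts. The windows around them run from 250 bases before to 50 after each start (RefSeq, GRCm38.p6, minus strand, 5′ to 3′). They are shown because RefSeq annotates more than 1 start for the gene. No probe was tied to any start, and a link between the starts and differences among the probes was not tested. Capitals mark matches to motifs searched on both strands: the NRF1 core GCATGCGC, the YY1 core AAGATGGC, the GC box GGGCGG, the CCAAT box, the E-box CACGTG and the TATA box TATAAA.
Brd2 start window 1, chr17:34122558-34122857: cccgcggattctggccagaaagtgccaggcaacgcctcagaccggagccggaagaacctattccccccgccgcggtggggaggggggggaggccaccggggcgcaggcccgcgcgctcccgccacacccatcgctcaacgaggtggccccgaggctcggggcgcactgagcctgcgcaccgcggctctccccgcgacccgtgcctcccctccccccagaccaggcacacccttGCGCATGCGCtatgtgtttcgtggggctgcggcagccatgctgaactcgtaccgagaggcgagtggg
Brd2 start window 2, chr17:34121698-34121997: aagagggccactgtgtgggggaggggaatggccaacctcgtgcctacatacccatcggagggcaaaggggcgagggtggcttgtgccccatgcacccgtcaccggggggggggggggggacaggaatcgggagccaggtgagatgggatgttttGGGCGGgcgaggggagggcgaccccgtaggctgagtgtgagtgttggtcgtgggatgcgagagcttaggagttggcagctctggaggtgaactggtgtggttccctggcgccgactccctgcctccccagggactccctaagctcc
Brd2 start window 3, chr17:34119851-34120150: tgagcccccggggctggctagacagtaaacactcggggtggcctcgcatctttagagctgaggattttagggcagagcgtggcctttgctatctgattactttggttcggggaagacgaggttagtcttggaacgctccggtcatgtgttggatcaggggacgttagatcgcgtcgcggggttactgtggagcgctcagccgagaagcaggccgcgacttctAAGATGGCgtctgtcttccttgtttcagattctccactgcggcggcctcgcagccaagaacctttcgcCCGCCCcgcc

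The first window held 32 CpG dinucleotides at 72.3% G and C, the second 14 at 66.0% and the last 24 at 58.7%, against medians of 7 and 52.7% over 32851 windows of the same length. Their starts lie 860 and 2707 bases downstream of the first. The first window alone held the NRF1 core, as 2 overlapping matches on opposite strands, which 2.71% of all windows hold. The last window alone held the YY1 core, found in 2.75% of all windows. The second and the last each held 1 GC box, found in 35.7%. The letters of the CCAAT box (37.4% of windows), the E-box (7.15%) and the TATA box (13.6%) were in none of the 3. These matches are descriptions of the letters and no evidence of binding.

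Of the 3 probes, 1 gave a large difference between the arrays and the other 2 gave almost none. Probe ILMN_2734848 had an intensity of 2330 in control cells and 5945 in cells with EMF and AuNPs. After background correction and quantile normalization its log2 signal was 11.10 and 12.53, a difference of 1.43, or 2.69-fold higher with EMF and AuNPs. The ratio of the intensities as deposited was 2.55.

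Probe ILMN_2751505 had intensities of 9265 and 9567. Its normalized log2 signals of 13.16 and 13.22 differed by 0.06, or 1.04-fold. Probe ILMN_3154409 had intensities of 6523 and 6480, and normalized log2 signals of 12.64 and 12.65 that differed by 0.02. All 3 probes had a detection p of 0 on both arrays, so none of the values rests on a signal near background. The plot of Brd2 signals shows 1 steep line and 2 flat ones.

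**Figure D1:**
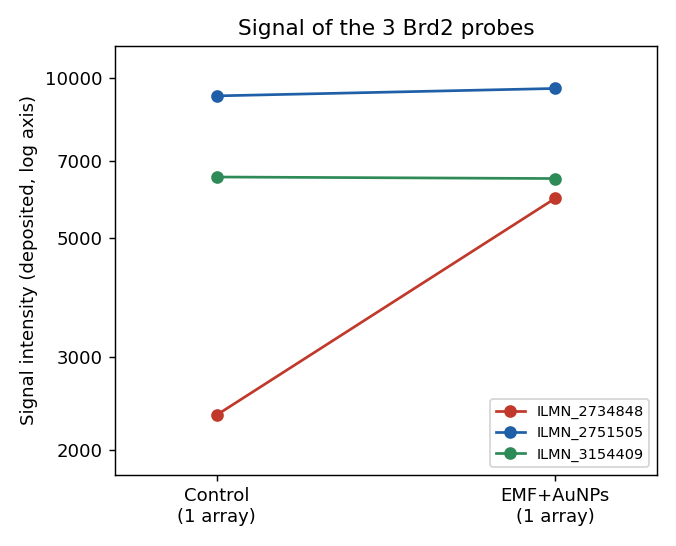
Deposited signal intensity (log axis) of the 3 Brd2 probes on the control array and the EMF+AuNPs array, 1 array each, with a line joining the 2 values of each probe. ILMN_2734848 goes from 2330 to 5945, while the lines of ILMN_2751505 and ILMN_3154409 are almost level.

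As a yardstick in place of replicates, the robust SD of the log2 differences (the scaled median absolute deviation) was taken among probes of like brightness, in 20 bins of equal size. Such a spread mixes true change with noise. The difference of ILMN_2734848 was 7.61 times the robust SD of its bin, which was 0.19. The differences of ILMN_2751505 and ILMN_3154409 were 0.327 and 0.11 times theirs, which were 0.17 and 0.16.

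At a limit of 2-fold, 1 of the 3 Brd2 probes was called higher and none lower. Over all 11583 probes detected on both arrays, 0.518% (60 probes) were called higher and 0.872% (101) lower. ILMN_2734848 ranked 17th from the highest difference. Without background correction 30 probes were higher and 39 lower, and ILMN_2734848 ranked 8th. With no normalization between arrays 24 were higher and 54 lower, and it ranked 6th. The 4 probes just above it, named after their values were seen, were those of Ccl2 (1.44), Insyn1 (1.46), Cpd (1.47) and Gpr84 (1.53). Those probes had intensities between 241 and 348 in control cells, near the dim end of detection.

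Among bright probes the Brd2 value stood further out. Its brightness bin held 579 probes, with differences from -1.33 to 1.43 and a central 95% from -0.47 to 0.41, and none differed more in the upward direction. Of the 2154 probes at least as bright over both arrays, 2 were 2-fold higher: ILMN_2734848 and a probe of the interferon-induced gene Ifi27l2a, with a difference of 1.09 and intensities of 3140 and 6447. The other Brd2 probes lay inside the central 95% of their own bins, from -0.43 to 0.39 and from -0.39 to 0.35. In the plot of differences against signal, the red point lies above the 2-fold limit with few probes of like brightness near it.

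**Figure D2:**
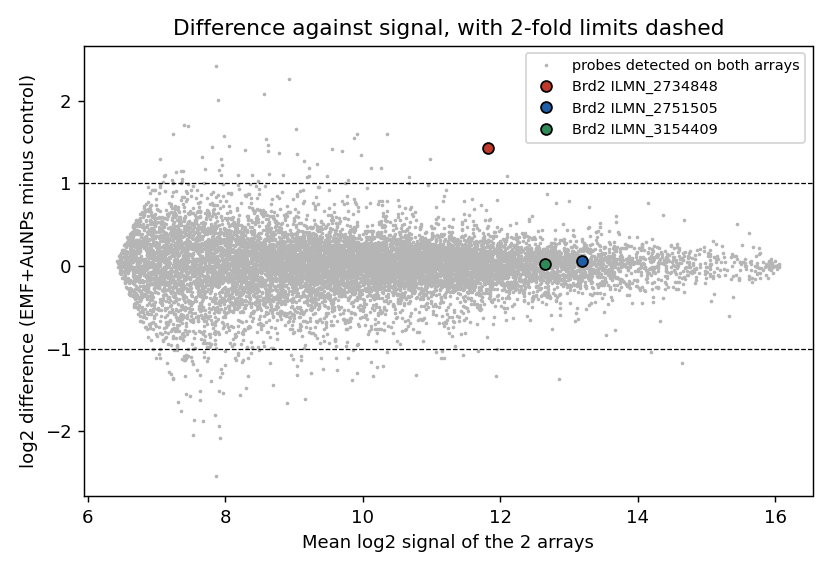
Log2 difference between the arrays (vertical) against the mean log2 signal (horizontal) for the 11583 probes detected on both arrays, with the 3 Brd2 probes in colour and the 2-fold limits dashed. ILMN_2734848 lies at 1.43, and the other Brd2 probes lie at 0.06 and 0.02 in the middle of the cloud.

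The value given to Brd2 as a gene therefore depended on which probe stood for it. By its brightest probe, the rule used for other genes here, Brd2 differed by 0.06. By the median of its probes it also differed by 0.06. By their mean it differed by 0.50, or 1.42-fold, a value that lay near none of the probes. The differences of ILMN_2751505 and ILMN_3154409 lay 0.04 apart, and that of ILMN_2734848 lay 1.37 above the nearer of them.

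The highest minus the lowest probe difference, 1.41 for Brd2, was set beside that of other genes with as many probes. Of 472 genes with exactly 3 probes detected on both arrays, 10 had a range at least as wide, Brd2 being the tenth, which is 2.12% of them. That place ran from 3rd without background correction to 16th at a detection p under 0.05. Their median range was 0.39 and their 95th percentile 1.11, and 92.4% stayed under 1. Over the 2054 genes with 2 or more such probes, the median range was 0.24, and 0.73% had a range of at least 1.41.

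Most of the wide ranges came from a probe that was low, not high. Among the 10 widest genes, 6 had a probe at least 2-fold lower with EMF and AuNPs and 3 had one at least 2-fold higher. The latter were Ccnd1, Anp32a and Brd2. Anp32a, which encodes an acidic nuclear phosphoprotein and was named after its values were seen, differed by 0.18, 1.01 and 1.66 on its probes, so all 3 lay above 0. Over the 472 genes, 3 had exactly 1 probe past 2-fold higher and 19 had exactly 1 past 2-fold lower. Only 1 gene had all 3 probes past 2-fold higher, and 1 had all 3 past it lower.

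**Figure D3:**
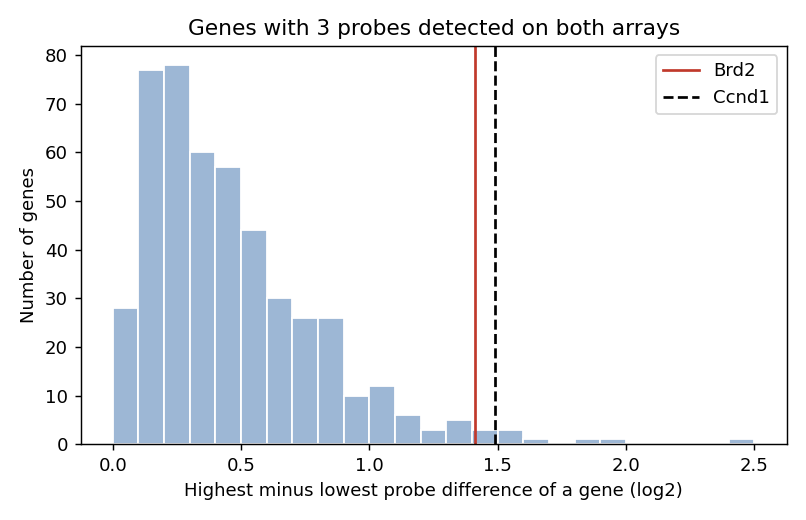
Number of genes by the highest minus the lowest log2 difference among their probes, for the 472 genes with 3 probes detected on both arrays. The lines mark Brd2 at 1.41 and Ccnd1 at 1.49, both in the thin right tail.

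The gene with the probe pattern most like that of Brd2 was Ccnd1. Likeness was the Euclidean distance between the 3 sorted log2 differences of 2 genes, over the genes with 3 probes detected on both arrays. Ccnd1 encodes cyclin D1, the partner of CDK4 and CDK6 in G1 phase, and lay at a distance of 0.13. Its probe ILMN_2669793 had intensities of 629 and 1408, a difference of 1.39. The other probes, ILMN_1221503 and ILMN_2601471, had 10689 and 9958, and 8857 and 9167, and differed by -0.10 and 0.05. As with Brd2, 1 probe was past 2-fold and the remaining pair differed by less than the robust SD of their bins (0.17 for each).

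The next was Eif4e3, a member of the cap-binding eIF4E family, at a distance of 0.36. Its differences were 0.05, 0.31 and 1.18, the last from a dim probe with intensities of 245 and 401. Without background correction that probe differed by 0.80, under 2-fold. Brd2, Ccnd1 and Eif4e3 were the 3 genes with exactly 1 of 3 probes past 2-fold higher.

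The remaining 3 of the 5 nearest genes were Arfgap1, a GTPase-activating protein of ARF1, at 0.54, and the RNA helicase gene Ddx24 and Bbc3, a p53 target that encodes PUMA, both at 0.69. No probe of theirs passed 2-fold, and their highest differences were 0.92, 0.75 and 0.75. Of the 5 genes, Ccnd1 thus lay nearest by a wide margin.

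The Brd2 values hardly moved with the processing. Under 6 distinct ways of background correction and normalization, the difference of ILMN_2734848 ran from 1.35 to 1.47, always past 2-fold. ILMN_2751505 ran from 0.05 to 0.12 and ILMN_3154409 from -0.01 to 0.07. In the authors' deposited table of log2 values, which equals one of these ways (no background correction), ILMN_2734848 had 11.16 and 12.55, a difference of 1.39. Also in the authors' deposited table, ILMN_2751505 had 13.18 and 13.23, and ILMN_3154409 had 12.66 and 12.68. The corresponding probe of Ccnd1 ran lower in several settings, down to 1.16 with no normalization between arrays.

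**Figure D4:**
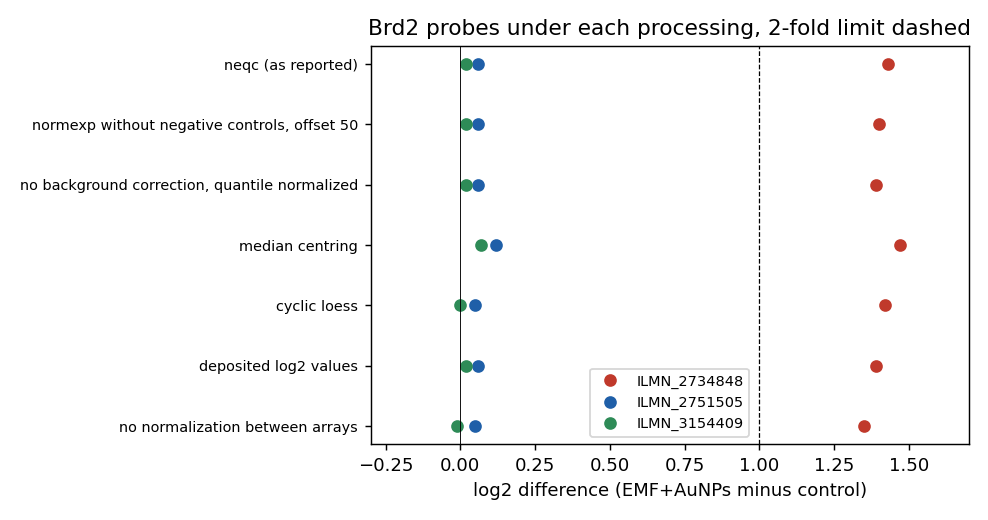
Log2 difference of the 3 Brd2 probes (EMF+AuNPs minus control) under each of 6 distinct processing settings and in the deposited log2 values, which equal the setting without background correction, with the 2-fold limit dashed. ILMN_2734848 stays between 1.35 and 1.47 and the other probes stay between -0.01 and 0.12.

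Brdt, the testis BET gene, gave little signal. Its probe ILMN_2705747 had intensities of 331 and 354, and differed by 0.27, within the robust SD of 0.34 for its brightness. Its other probe, ILMN_3127006, was detected on neither array, at 105 and 111.

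The genes beside Brd2 on chromosome 17 were compared next, because one of them overlaps it. H2-DMa, which encodes the alpha chain of the class II peptide-loading molecule H2-M, has a RefSeq range from 34119693 to 34139101 on the plus strand, sharing 3122 bases with Brd2. One H2-DMa start window, chr17:34122582-34122881, shares 276 bases with Brd2 start window 1 on the opposite strand. H2-DMa had intensities of 419 and 389 and differed by -0.03. Of the 5 nearest protein-coding genes with a probe on each side, 10 in all, 7 were measured on both arrays and 3 (H2-Oa, Col11a2 and H2-DMb2) were detected on neither.

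By their brightest probes none of the 7 passed 1.5-fold. Of all detected genes, 3.34% were at least 1.5-fold higher and 2.91% lower. The differences of the 7 ran from -0.09 to 0.51. The highest were those of Tap1, a subunit of the peptide transporter (264 and 312, difference 0.51, robust SD 0.43) and of the immunoproteasome subunit gene Psmb9 (718 and 901, difference 0.45, robust SD 0.26). H2-DMb1, on the same side of Brd2 as Tap1 and Psmb9, differed by 0.25. On the other side, the nuclear receptor gene Rxrb differed by -0.09, the zinc transporter gene Slc39a7 by 0.07 and H2-Ke6 by 0.06. With so few of all genes past 1.5-fold, none among 7 says little about the locus. By its own brightest probe Brd2 differed by 0.06.

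Around Brd3, for which no probe was listed, 5 of the 10 nearest such genes were measured, 1 had a bound and 4 were not detected. Wdr5, which encodes a shared subunit of histone H3 lysine 4 methyltransferases and is the nearest on the higher-coordinate side, had 1143 and 1088 and differed by 0.00. The measured values and the bound ran from -0.18 for Olfm1 to 0.56 for Adamtsl2. None passed 1.5-fold, a limit that few of all detected genes passed (3.34% higher and 2.91% lower).

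Genes that work with BET proteins were then described by their brightest detected probe. Over all 8651 detected genes, 0.52% were at least 2-fold higher and 0.485% at least 2-fold lower, 3.34% were at least 1.5-fold higher and 2.91% at least 1.5-fold lower, and the median difference was 0.03. A gene detected on 1 array only entered with a bound: its signal there was set against the detection floor of the other array, or against its own value on that array where this was higher.

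Positive transcription elongation factor b (P-TEFb) is the kinase that BET proteins help to release from the 7SK complex. Of 5 genes of P-TEFb and the 7SK complex on the arrays, 4 were detected, with a median of 0.26 and 0 past 2-fold. Mepce, the 7SK capping enzyme, barely passed 1.5-fold, at 0.59 or 1.51-fold after background correction, with a robust SD of 0.34. Its deposited intensities of 335 and 426 were dim and less than 1.5-fold apart. The cyclin T1 gene Ccnt1 differed by 0.34, the kinase gene Cdk9 by -0.24 and Hexim1, the inhibitor of P-TEFb, by 0.18. The values thus lay on both sides of 0. Elongation and pausing factors had a median of 0.04 over 13 detected genes, and 0 passed 1.5-fold. Their largest differences were those of the super elongation complex genes Mllt1 (0.48), Mllt3 (-0.33) and Aff4 (0.28) and of the histone chaperone gene Supt6 (0.32).

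Partners of the ET domain showed small values, with 3 of 4 detected: the remodeller gene Chd4 at 0.19, the replication clamp unloader gene Atad5 at 0.10 and the lysyl hydroxylase gene Jmjd6 at 0.09. The probes of Chd4 disagreed, the other 2 differing by -0.64 and 0.26. Acetyltransferases that act on histone H4, which write the mark Brd2 reads, had a median of 0.02 over 5 detected genes, all between -0.13 (Ep300) and 0.09 (Kat8 and Hat1), with Kat7 at 0.02.

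Other bromodomain genes had a median of -0.06 over 17 detected genes, 8 above 0 and 9 below. By their brightest probe 0 passed 1.5-fold, against 3.34% and 2.91% of all detected genes. The largest values were those of the acetyltransferase gene Kat2b at -0.57, the chromatin remodelling ATPase gene Smarca4 at 0.47, and Baz2a and Brwd3, detected with EMF and AuNPs alone, with bounds of 0.46 and 0.37. A second probe of Kat2b differed by -1.55, so this gene too had probes that disagreed in size.

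E2F and cyclin genes had a median of 0.11 over 8 detected genes, and 1 passed 1.5-fold. This was E2f2, a transcription factor of S phase entry, with intensities of 309 and 453 and a difference of 0.88; a second probe differed by 0.99. E2f3 differed by 0.33 and E2f1 by 0.25. The cyclin A2 gene Ccna2 was detected with EMF and AuNPs alone, with a bound of 0.18. Ccnd1 enters here by its brightest probe, at -0.10.

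A list of genes that BET inhibitors are known to lower in other cells was read last. All 12 had a probe and 6 were detected, while Myc, Il6, Il1a, Ifnb1, Fosl1 and Cdk6 were not detected on either array. The monocyte chemokine genes Ccl12 and Ccl2 were 2-fold higher, at 1.60 and 1.44, but without background correction Ccl2 differed by 0.99, under 2-fold, and Ccl12 was 2.79-fold higher. Il1b was detected with EMF and AuNPs alone, at dim intensities of 158 and 247. Its bound of 1.85-fold higher was taken after background correction. Bcl2 differed by -0.24, and none of the 6 passed 1.5-fold lower. The list's median of 0.50 is the midpoint of bounds for Cxcl9 (0.11) and Il1b (0.89), each detected with EMF and AuNPs alone, and it was 0.26 without background correction and 0.14 with no filter on detection. The list holds inflammatory genes whose higher signal was known when the list was written, so it is no independent evidence on Brd2.

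**Figure D5:**
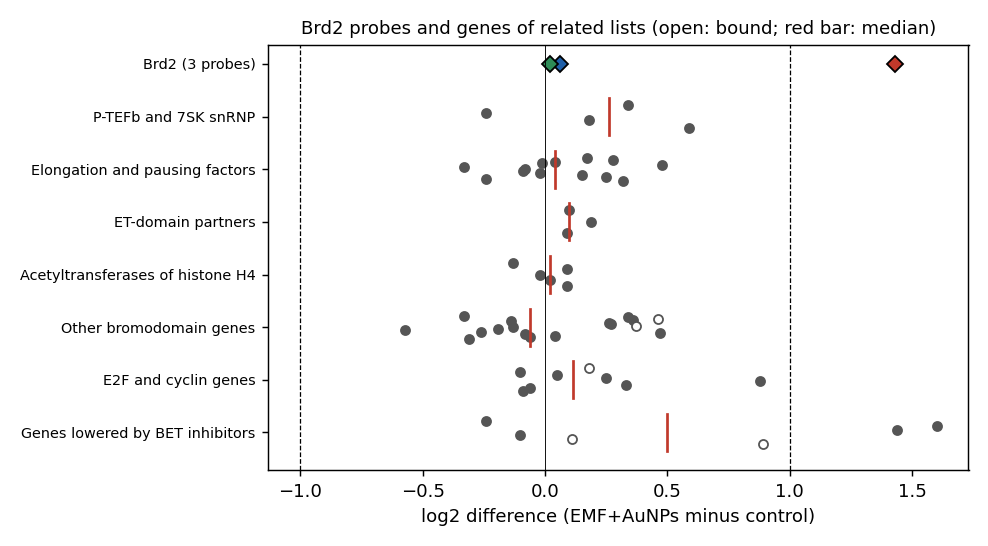
Log2 difference (EMF+AuNPs minus control) of the 3 Brd2 probes (diamonds) and of the detected genes of each related list (filled circles, measured; open circles, bounds), with list medians as red bars and 2-fold limits dashed. Past the limits lie 1 Brd2 probe, Ccl12 and Ccl2.

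Disagreement between probes was seen for a reference gene too. The 5 probes of the actin gene Actb ran from -0.33 to 0.96, a range of 1.29 against 1.41 for the 3 of Brd2, with the brightest at 0.12. The other reference genes had narrower ranges, 0.30 over 2 probes of Gapdh and 0.24 over 3 probes of Hprt. Their brightest probes gave 0.03 and 0.09.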

How the data were processed

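Per the labels' protocols, total RNA was taken with Trizol and labelled as biotinylated cRNA. The submitters' processing notes name GenomeStudio 2011.1. What the authors deposited was a signal intensity for each probe, without normalization between arrays, and a detection p-value, which fell with its own array's intensity on both arrays. The deposited log2 values equalled quantile normalized log2 intensities without background correction to within 4.99988e-07. Gene names came from the platform annotation, matched to RefSeq by Entrez number.

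Intensities were corrected and quantile normalized with neqc of limma 3.58.1 in R 4.3.3 (offset 16), and summarised in Python 3.11.15. Detection meant p under 0.01. Calls were by size, at 2-fold. The steps were tested on simulated arrays. Named genes were the members and relatives, the 4 largest differences of each list and any past 2-fold, the 5 nearest genes on each side, the 5 most alike probe patterns and 3 reference genes. Members and lists were chosen with earlier results of these data known. Probe sequences and proteins were not used here.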

Additional observations from a re-analysis of the deposited data

How the results depend on the processing

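The alternatives changed the background correction, the normalization, the detection limit, the fold limit, the probe that stands for a gene and the detection filter. The differences of the 3 Brd2 probes and the Brd2 range (1.36 to 1.41 over 7 distinct settings) kept their size and their side of 2-fold under every alternative run for them. Ranks moved more, and the cause was not tested: ILMN_2734848 ranked 17th as reported and between 6th and 17th over 6 distinct settings, and the Brd2 range ranked 10th as reported and between 3rd and 16th over 7. The count of probes 2-fold higher, 60 as reported, was 33 with normexp and no negative controls, 30 with no background correction and in the deposited values, 24 with no normalization between arrays and 360 at a limit of 1.5-fold. The count lower, 101 as reported, was 51, 39 (in both), 54 and 521 in the same order. The deposited values equal those without background correction and are not counted as a further setting. Of 80 list medians recomputed, 77 stayed within 0.23 (the robust SD over all detected genes). The 3 others were those of the genes lowered by BET inhibitors, 0.50 as reported and 0.26 with no background correction and in the deposited values, 0.20 with no normalization between arrays and 0.14 with no filter on detection. Of the 5 genes with the most similar probe pattern, 3 were among the nearest 5 without background correction and 2 with a detection p under 0.05. The rank of ILMN_2734848 among all probes and the choice of probe for Brd2 were added after seeing the data. Lists with under 3 detected genes have no median here. No paired analysis was possible because each condition has 1 array, and no replicate could be left out.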

Other observations

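Several genes with a wide range of probe differences had 1 probe at least 2-fold lower beside others under 1.5-fold, and all are named after their values were seen. Lsm12 had the widest range of the 472 genes, 2.48, with differences of -2.08, -0.08 and 0.40. Tmem168 differed by -1.86, 0.02 and 0.11. Prmt5, which encodes an arginine methyltransferase that acts on histones, differed by -1.29, 0.04 and 0.33. Adgre1, a macrophage surface antigen, differed by -1.38, 0.06 and 0.13. Its brightest probe, the one that stands for it among the macrophage markers, was the one at 0.06.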
